A study of Mus musculus with 12 samples.

Results

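The genes described here encode the proteins of the mitochondrial ribosome. They were taken from the table of expressed genes by name: every row whose symbol began with *Mrpl* or *Mrps*, or was *Dap3*, with a mean of at least 10 normalized counts over the 12 libraries. This gave 81 of the 14775 rows, 50 named for the large subunit and 31, *Dap3* included, named for the small subunit. Of the 81 rows, 3 are pseudogenes by name (*Mrpl23-ps1*, *Mrpl48-ps* and *Mrps36-ps1*), which left 48 large and 30 small protein-coding genes. No row with a matching name was under the minimum mean. The row nearest to it was *Mrps36-ps1*, at 16.2 ± 5.37 normalized counts (SD, n = 6) in the vehicle libraries, with 6 reads in its poorest library. The deposited rows had already been filtered, so genes of the mitochondrial ribosome can be missing from them. Of 19 large subunit genes listed as found only in mitochondrial ribosomes, 18 had a row.

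The mitochondrial ribosome, or mitoribosome, is the machine inside mitochondria that translates the few mRNAs of the mitochondrial genome, all of which encode subunits of the respiratory chain and the ATP synthase. Its 2 rRNAs are transcribed from mitochondrial DNA, while all of its proteins are encoded in the nucleus, made in the cytosol and imported. Brown adipocytes are packed with mitochondria, which burn fuel to make heat through uncoupling protein 1.

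The libraries came from murine TMCON brown preadipocytes, an immortalized line. The study made its brown adipocyte lines from the brown fat of mouse pups with a retrovirus carrying SV40 sequence, so the cells stand for cultured adipocytes and not for the tissue, and the sources used here do not say which mice gave TMCON. All cells were kept for 2 days in induction medium and 7 days in maintenance medium, and on day 9 spent 4 h in Krebs-Ringer bicarbonate buffer with fatty-acid free BSA. The 6 CPF libraries received 1 pM chlorpyrifos, an organophosphate insecticide, and the 6 vehicle libraries received DMSO. The question asked of these genes was whether RNA for the large and the small subunit differed between CPF and vehicle, and whether the subunits moved alike from library to library. Whether each of the 6 libraries of a group was a culture of its own is not stated, and the p-values given here cover the spread between these libraries only, which may be technical.

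Libraries held between 7875502 and 14166615 reads assigned to listed genes. Vehicle replicate 2 and CPF replicate 1 stood apart on the first principal component, which carried 29.1% of the variance: they scored 31.5 and 33.0, and the other 10 libraries lay between -13.7 and 6.12. Of 12 brown adipocyte markers 11 were listed, and their summed level ranged from 52630 to 64160 normalized counts in vehicle libraries and from 40890 in CPF replicate 1 to 71402 in CPF libraries. All 11 preadipocyte and fibroblast markers were listed too, with sums between 58133 and 105734 in the vehicle libraries and between 53939 and 71076 in the CPF libraries, highest in vehicle replicate 2 and CPF replicate 1 respectively. Of the other markers, 2 of 5 for macrophages, 0 of 4 for endothelium and 1 of 5 for skeletal muscle were listed, with sums of at most 162, 0 and 52.2. The labelled cell type therefore had its markers, and the part that these differences between libraries play in the values below was not tested.

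The 81 genes lay on 17 chromosomes in the GRCm38 annotation, and their starts often lie close to the start of a neighbour on the opposite strand. Of the 78 protein-coding members, 34 (43.6%) started within 1000 bases of a protein-coding start on the other strand, against 2069 of 12446 protein-coding genes of the table (16.6%). Such a neighbour is said here to face the member. In some pairs its annotated start lay upstream, as for *Mrps12* (172 bases away). In others it lay inside the member, so that the genes overlap, as for *Mrpl43* (779 bases) and *Mrpl47* (615 bases). The share was 50% for the large subunit (24 of 48) and 33.3% for the small (10 of 30). Several neighbours work in mitochondria themselves. *Mrps12* faces *Sars2*, the mitochondrial seryl-tRNA synthetase, *Mrpl36* faces *Ndufs6* and *Mrpl47* faces *Ndufb5*, both subunits of respiratory complex I, and *Mrpl43* faces *Twnk*, the helicase that unwinds mitochondrial DNA. *Mrpl46* and *Mrps11* face each other, so a large and a small subunit gene share a promoter region. The exons of the members were also short, with a median of 2541.5 bases for all exons of a gene together against 4546.5 over the protein-coding genes of the table.

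RefSeq promoter windows (GRCm38.p6, 250 bases before to 50 after the start) were matched to 68 members. Those of the facing pair *Mrps11* and *Mrpl46* and of 3 other members are shown here as examples. Capitals mark matches, on either strand, to the letters GCGCANGCG (nuclear respiratory factor 1, NRF1), CCGGAAG (the ETS family), AAGATGGC (YY1) and TATAAA (the TATA box). The windows of *Mrps11* (chr7:78782881-78783180, plus strand) and *Mrpl46* (chr7:78783040-78783339, minus strand) share 141 bases, and their RefSeq starts lie 42 bases apart. *Mrps12* (chr7:28741772-28742071, minus strand) is the gene that faces *Sars2*. *Mrpl9* (chr3:94443086-94443385, plus strand) and *Mrps9* (chr1:42850983-42851282, plus strand) are among the members with the smallest p-values, and both carry NRF1 letters. Of the other positive members with the smallest p-values, *Mrpl12* carries them too, while *Mrpl3*, *Mrpl34* and *Mrps17* do not. *Dap3* and *Mrps34* had no matched window.
Mrps11: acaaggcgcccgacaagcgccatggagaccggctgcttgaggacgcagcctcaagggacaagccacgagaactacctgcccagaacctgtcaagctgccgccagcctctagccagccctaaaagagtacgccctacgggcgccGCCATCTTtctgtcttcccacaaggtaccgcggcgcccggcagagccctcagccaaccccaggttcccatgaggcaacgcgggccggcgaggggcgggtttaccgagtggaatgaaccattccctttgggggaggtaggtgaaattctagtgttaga
Mrpl46: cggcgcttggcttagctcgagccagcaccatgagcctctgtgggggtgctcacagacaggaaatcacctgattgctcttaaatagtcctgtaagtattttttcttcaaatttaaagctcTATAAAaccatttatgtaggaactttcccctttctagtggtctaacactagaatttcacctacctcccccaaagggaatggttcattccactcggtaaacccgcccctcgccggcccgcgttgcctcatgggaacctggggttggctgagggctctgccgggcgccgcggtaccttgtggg
Mrps12: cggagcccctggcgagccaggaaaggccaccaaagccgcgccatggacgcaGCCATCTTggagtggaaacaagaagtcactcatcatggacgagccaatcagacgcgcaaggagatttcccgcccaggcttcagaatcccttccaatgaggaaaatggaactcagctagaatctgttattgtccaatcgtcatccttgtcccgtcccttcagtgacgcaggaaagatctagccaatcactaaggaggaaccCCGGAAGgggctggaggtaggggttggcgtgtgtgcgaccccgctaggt
Mrpl9: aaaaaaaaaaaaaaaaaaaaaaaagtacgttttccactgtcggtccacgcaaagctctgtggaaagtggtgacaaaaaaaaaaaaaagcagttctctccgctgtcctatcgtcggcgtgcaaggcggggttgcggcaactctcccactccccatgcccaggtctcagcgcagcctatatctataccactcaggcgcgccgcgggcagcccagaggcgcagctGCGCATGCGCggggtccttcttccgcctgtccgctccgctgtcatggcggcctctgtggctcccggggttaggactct
Mrps9: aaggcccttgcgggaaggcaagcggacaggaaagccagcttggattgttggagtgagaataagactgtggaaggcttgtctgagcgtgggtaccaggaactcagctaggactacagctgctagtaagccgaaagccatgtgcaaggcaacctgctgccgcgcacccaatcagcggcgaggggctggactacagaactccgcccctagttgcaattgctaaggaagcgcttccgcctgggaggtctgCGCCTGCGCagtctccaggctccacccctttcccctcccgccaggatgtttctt

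The capitals show 1 YY1 match in *Mrps11*, 1 YY1 and 1 ETS match in *Mrps12*, 2 overlapping NRF1 matches in *Mrpl9*, 1 NRF1 match in *Mrps9*, and in *Mrpl46* only TATA letters. Over the 68 matched members, with the window nearest to the annotated start, the NRF1 letters were found in 16 (23.5%), against 12.9% of the 13040 windows of genes in the table and 6.25% of all 32851 windows. Those 13040 windows belong to 10183 genes, so some genes there count with more than 1 window. ETS letters were in 23 members (33.8%, against 17.0% and 8.86%) and YY1 letters in 12 (17.6%, against 4.26% and 2.75%). TATA letters were in 4 members (5.88%), against 7.07% of the windows of genes in the table and 13.6% of all windows. At least 1 of the NRF1, ETS and YY1 letters stood in 41 of 68 windows (60.3%), in 27 of 42 for the large subunit and 14 of 26 for the small, against 29.9% in the windows of genes in the table. NRF1, ETS factors and YY1 are known as activators of nuclear genes for mitochondrial proteins; a match here is a description of letters and not a bound site.

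Levels were compared between genes per kilobase of exons. In the vehicle libraries the large subunit genes had a median of 168 normalized counts per kilobase and the small subunit genes 136, against 67.1 over all genes tested, pseudogenes left out. The 5 highest were *Mrpl14* at 649 ± 48.9 normalized counts per kilobase (SD, n = 6), *Mrpl34* at 646 ± 98.6, *Mrps6* at 619 ± 57.5, *Mrpl2* at 609 ± 35.8 and *Mrpl12* at 588 ± 40.5. These neighbours did not differ beyond their spread. All have counterparts in bacterial ribosomes; the Mrpl14 protein lies at the face of the large subunit that meets the small one, Mrpl2 near the catalytic center, and Mrpl12 forms the stalk that recruits translation factors. Next in the small subunit came *Mrps21* at 562 ± 28.0 and *Mrps18b* at 286 ± 29.7 normalized counts per kilobase.

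At the low end of the large subunit, *Mrpl48* was at 24.9 ± 2.13, *Mrpl33* at 25.4 ± 3.87 and *Mrpl23* at 30.6 ± 5.05 normalized counts per kilobase, so the range from lowest to highest was 26.1-fold. In the small subunit it was 14.97-fold from *Mrps10*, at 41.3 ± 2.90, with *Mrps18c* next at 55.8 ± 4.72. These ranks depend on the length used. Dividing by the longest transcript alone put *Mrpl33* at 67.8, *Mrpl48* at 47.3 and *Mrps10* at 81.6 normalized counts per kilobase, raised *Mrps18b* to 553 and *Mrps21* to 851, and moved *Mrpl34* from rank 2 to rank 7 while *Mrpl14* stayed at rank 1. Levels of *Mrps6* and *Mrps18c* are less certain, because 19.9% and 23.2% of their exonic bases lie under another gene of the same strand.

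**Figure D1:**
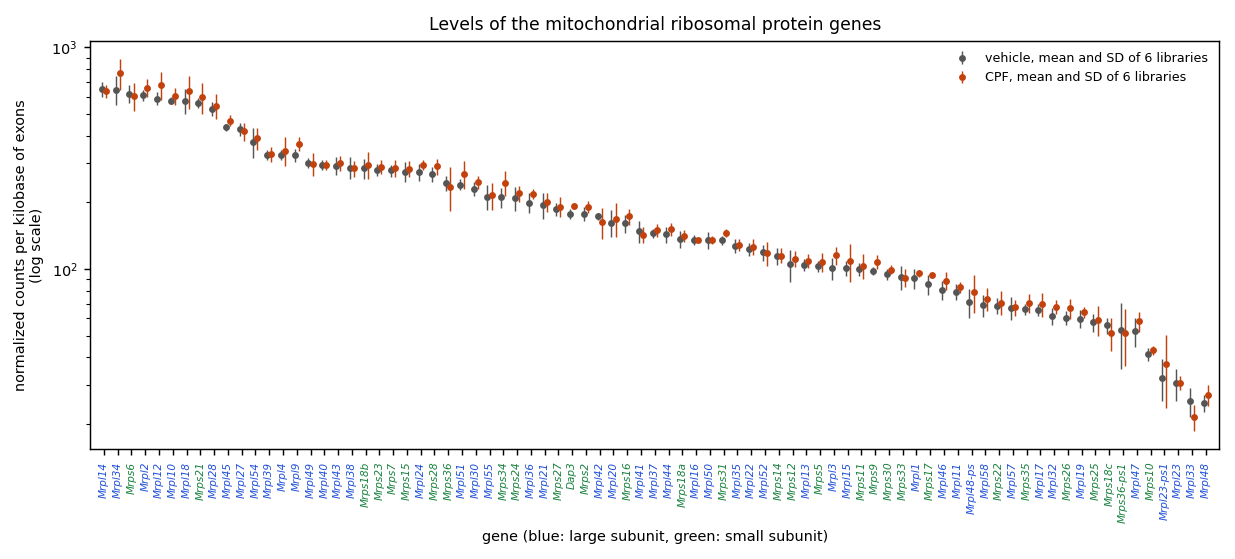
Level of each of the 81 genes in normalized counts per kilobase of exons (log scale), ordered by the vehicle mean; points are means and bars SDs of the 6 vehicle or 6 CPF libraries, with large subunit names in blue and small in green. The vehicle means run from 649 for Mrpl14 to 24.9 for Mrpl48, and genes of both subunits are spread over the whole range.

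Most genes of both subunits had a slightly higher mean in the CPF libraries, but no gene passed the test. In these bulk libraries a shift in the kinds of cells and a shift in RNA per cell cannot be told apart. Of the 11 preadipocyte and fibroblast markers, 10 had a negative log2 fold change, with a median of -0.16, and of the 11 brown adipocyte markers 7, with a median of -0.037; their part in the values of the members was not tested. The log2 fold change, CPF against vehicle, was positive for 67 of 81 members, where 49.6% of all 13531 genes tested were positive. It was positive for 41 of 50 large subunit genes, with a median of 0.060 and a range from -0.23 to 0.24, and for 26 of 31 small subunit genes, with a median of 0.060 and a range from -0.12 to 0.22. The median over all genes tested was -0.0015. Members share libraries and are not replicates, so neither the counts nor the medians carry a p-value. By way of comparison, 61 of the 78 genes for cytosolic ribosomal proteins were positive too, with a median of 0.041.

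At an adjusted p under 0.05 (limma, Benjamini-Hochberg over all genes tested), 0 members and 0 genes in all (0%) were called, and the lowest adjusted p among members was 0.611. The lowest adjusted p of a member was 0.576 with edgeR and 0.390 with DESeq2, so both tools called 0 members as well. At an unadjusted p under 0.05, 3 large and 4 small subunit genes were higher with CPF, 7 of 81 against 2.77% of all genes, and 0 members were lower, against 4.55% of all genes. For these same counts edgeR gave 6 higher members, against 2.82% of all genes, and DESeq2 7, against 2.74%, with 0 lower in each. For 0 members did every CPF library lie above every vehicle library, which was the case for 0.126% of all genes.

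The 95% interval of the log2 fold change held 0 for 74 of 81 members, with a median reach of 0.16 to either side. The median SD within groups was 0.14 on the log2 scale for the large and 0.13 for the small subunit, against 0.17 over all genes tested. *Mrpl16* varied least, at 0.059, and *Dap3* came next at 0.061. The pseudogenes *Mrps36-ps1* and *Mrpl23-ps1* varied most, at 0.47 and 0.41, and the most variable gene apart from them was *Mrps36* at 0.27.

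**Figure D2:**
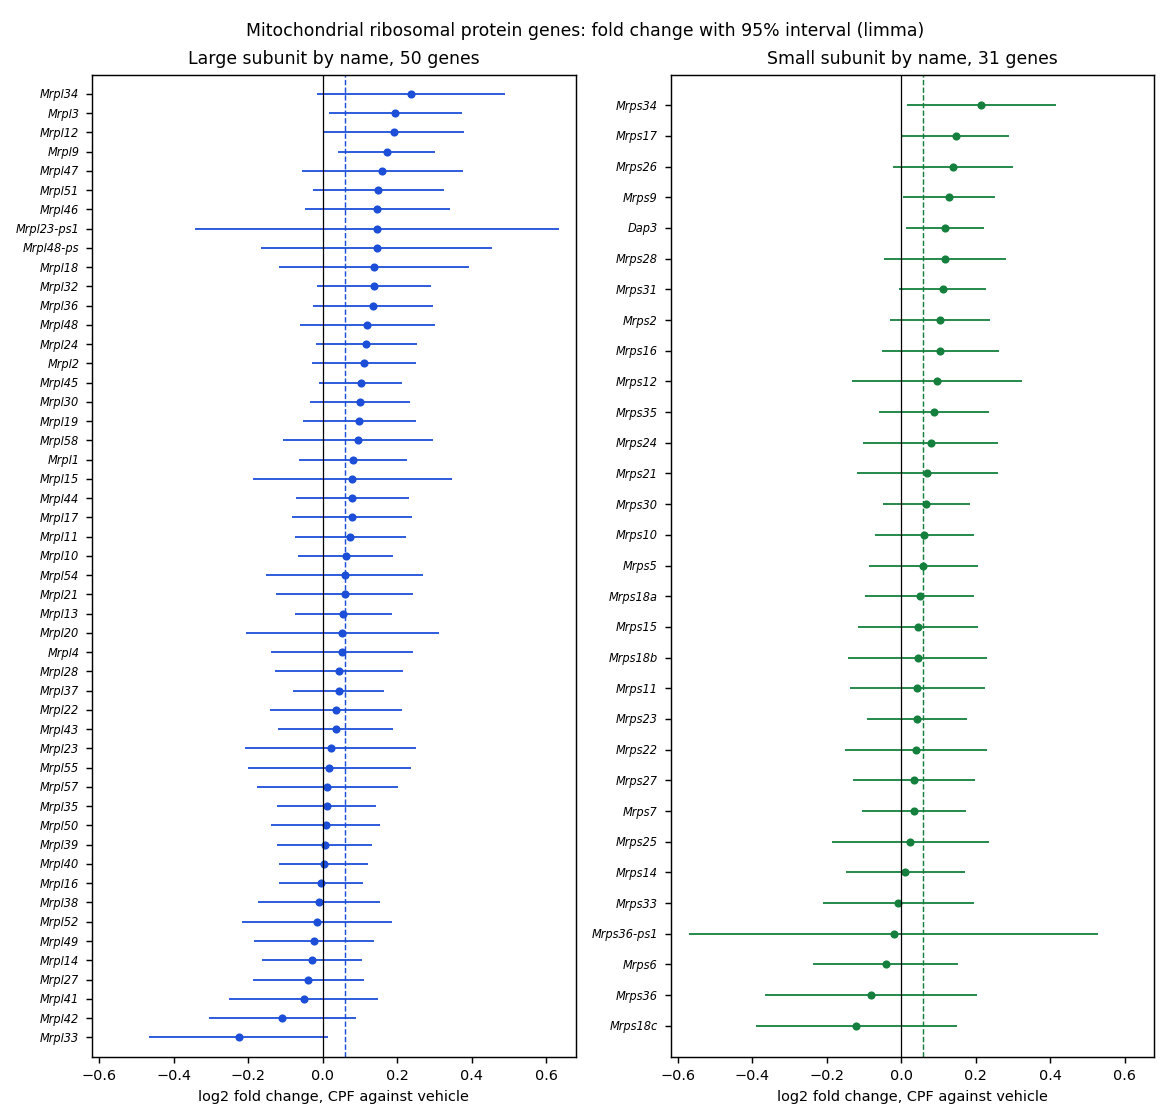
Log2 fold change (CPF against vehicle) of the 50 large and 31 small subunit genes with 95% limma intervals; the solid line is 0 and the dashed line the median of the subunit. Both medians stand at 0.060, and 47 large and 27 small subunit intervals cross 0.

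In the large subunit the smallest p-value belonged to *Mrpl9* (chromosome 3, 94443318 to 94451130), a structural protein with a bacterial counterpart. Its vehicle libraries ranged from 792 through a median of 879.6 to 962 normalized counts and its CPF libraries from 907 through 985 to 1091. All 6 CPF libraries lay above the vehicle mean, but the groups overlapped. The means were 883 ± 58.5 and 995 ± 73.7 (SD, n = 6 each), and the log2 fold change was 0.17 with SE 0.062. The two-sided exact permutation test over the 924 arrangements of the libraries, whose smallest possible p is 0.00216, gave p = 0.0152, unadjusted, and the adjusted p of limma was 0.611.

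*Mrpl3*, a protein at the catalytic core of the large subunit, ranged from 526 through 685 to 743 normalized counts in vehicle and from 641 through 786 to 821 in CPF libraries. Its lowest vehicle and lowest CPF values were those of vehicle replicate 2 and CPF replicate 1. The log2 fold change was 0.19 (SE 0.084, exact permutation p = 0.0498, unadjusted), and without vehicle replicate 2 it was 0.13. *Mrpl12*, the stalk protein, ranged from 831 through 907 to 990.1 normalized counts in vehicle and from 781 through 1073 to 1163 in CPF libraries, so the lowest of all 12 values was a CPF library. Its log2 fold change was 0.19 (SE 0.089, exact permutation p = 0.0931). *Mrpl34* had the largest positive value of the members, 0.24 (SE 0.12, exact permutation p = 0.0952), with vehicle libraries from 319.6 to 481 and CPF libraries from 333 to 539.5 normalized counts.

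Among the 9 large subunit genes with a negative log2 fold change, *Mrpl33* and *Mrpl42* had the smallest p-values. *Mrpl33* ranged from 149.5 through 191 to 221 normalized counts in vehicle and from 129.5 through 164 to 184 in CPF libraries, and 0 of 6 CPF libraries lay above the vehicle mean, the only member for which this held. How often this held over all genes was not counted. Its means were 186 ± 28.4 and 158 ± 21.02, with a log2 fold change of -0.23 (SE 0.11, exact permutation p = 0.0996). Replicates 1 to 3 alone gave -0.098 and replicates 4 to 6 alone -0.35. *Mrpl42*, a protein found only in mitochondrial ribosomes, had a log2 fold change of -0.11 (exact permutation p = 0.407), and without CPF replicate 1, its lowest library at 426 normalized counts, the value was -0.014.

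In the small subunit *Dap3* had the smallest p-value. Dap3, also known as a death-associated protein, is a GTP-binding protein of the small subunit. It ranged from 1096 through 1134 to 1248 normalized counts in vehicle and from 1199.5 through 1252 to 1306 in CPF libraries; all 6 CPF libraries lay above the vehicle mean and only the highest vehicle library reached into their range. The means were 1152 ± 56.2 and 1250.3 ± 44.96 (SD, n = 6 each), with a log2 fold change of 0.12 (SE 0.049, exact permutation p = 0.0108, unadjusted; limma adjusted p = 0.652).

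*Mrps17*, a protein with a bacterial counterpart that in bacteria binds the rRNA early in assembly, had the smallest exact permutation p, 0.00649, unadjusted, beside a limma adjusted p of 0.679. Its vehicle libraries ranged from 448 through 573 to 604 and its CPF libraries from 595 through 607 to 639 normalized counts, so 1 vehicle library reached into the CPF range. Without vehicle replicate 2, its lowest library, its log2 fold change went from 0.15 to 0.087. *Mrps9*, also of bacterial descent, ranged from 522 through 574 to 589 normalized counts in vehicle and from 574 through 608 to 684 in CPF libraries, with a log2 fold change of 0.13 (SE 0.058, exact permutation p = 0.0195). *Mrps34*, a protein found only in mitochondrial ribosomes and needed for a stable small subunit, had a log2 fold change of 0.22 (SE 0.095, exact permutation p = 0.0714), with CPF replicate 1 lowest of all at 379.9 normalized counts. Of its exonic bases, 37.0% lie under another gene of the same strand, so its counts are uncertain.

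Negative values in the small subunit were few and close to the spread between libraries. *Mrps18c*, with 60.0 ± 5.08 normalized counts in vehicle and 55.6 ± 9.42 in CPF libraries, had a log2 fold change of -0.12 (exact permutation p = 0.340), and without CPF replicate 4, its lowest library, the value was -0.036. *Mrps36*, whose protein is known as a part of the 2-oxoglutarate dehydrogenase complex and not of the ribosome, went from 311 ± 24.8 to 300.3 ± 67.0 normalized counts, and its log2 fold change of -0.081 became 0.047 without CPF replicate 1. The 3 paralogs of the Mrps18 group gave -0.12 for *Mrps18c*, 0.044 for *Mrps18b* and 0.049 for *Mrps18a*. With 1 library left out the value of *Mrps18b* ran from -0.023 without CPF replicate 1 to 0.094 without vehicle replicate 3, and that of *Mrps18a* from 0.010 (vehicle replicate 5 left out) to 0.077 (vehicle replicate 6 left out).

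**Figure D3:**
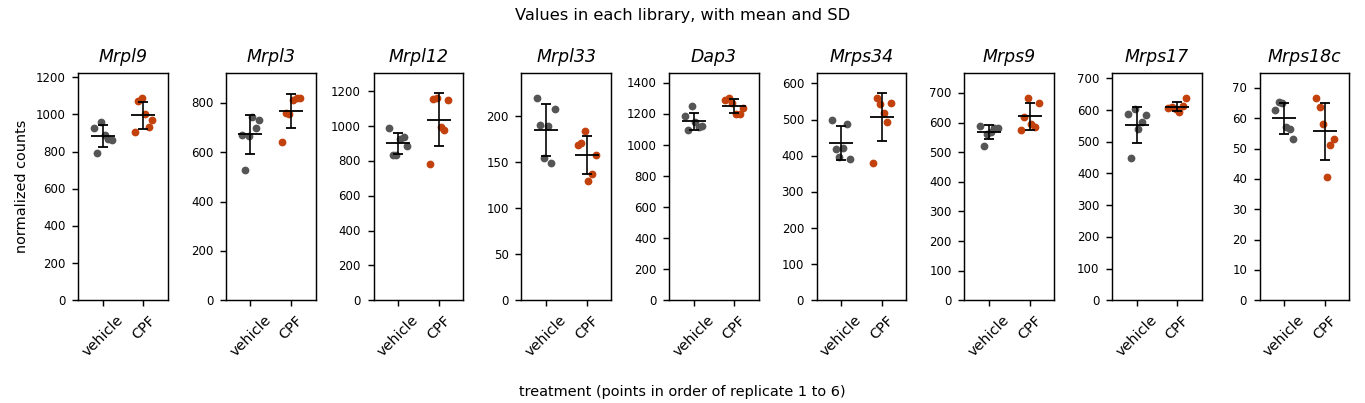
Normalized counts of 9 named genes in each library (axes start at 0); points are the 6 vehicle (grey) and 6 CPF (orange) libraries, and black bars the mean and SD. Mrpl9, Dap3, Mrps9 and Mrps17 have all 6 CPF libraries above the vehicle mean, and the groups overlap in all 9 genes.

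The remaining 57 members are given by their ranges. Of the 39 large subunit genes among them, 33 had a positive log2 fold change, from -0.051 for *Mrpl41* to 0.16 for *Mrpl47*, and of the 18 small subunit genes 17, from -0.0077 for *Mrps33* to 0.14 for *Mrps26*. Their mean levels over the 12 libraries ran from 20.2 normalized counts for *Mrpl23-ps1* to 1173 for *Mrpl45*. Of the members named whatever their values, *Mrpl58*, a peptidyl-tRNA hydrolase built into the large subunit, had a log2 fold change of 0.095 (0.051 without vehicle replicate 2, 0.057 without CPF replicate 2 and 0.15 without CPF replicate 1), and *Mrps30*, which despite its name sits in the large subunit, 0.067.

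The members were also compared by the origin of their proteins. Members with a bacterial counterpart were positive in 39 of 45 cases, with a median log2 fold change of 0.074, and those found only in mitochondria in 23 of 29, with a median of 0.042. In the large subunit these were 25 of 29 (median 0.079) and 13 of 18 (0.023), and in the small subunit 14 of 16 (0.066) and 10 of 11 (0.044), so the share of positive values was higher for bacterial counterparts in the large and lower in the small subunit, and no test was made. Here *Mrps18b* was counted as found only in mitochondria, although its paralog *Mrps18c* was counted with the bacterial counterparts. These origins do not cover all of the 48 large and 30 small protein-coding members, so some members of both subunits were left out of the comparison by origin. Placing *Mrps30* and *Mrps18a*, whose proteins sit in the large subunit, with the large subunit and leaving out *Mrps36* gave 43 of 52 and 24 of 28 positive, with medians of 0.060 and 0.061. The genes that start within 1000 bases of a neighbour were positive in 29 of 34 cases (median 0.059) and the others in 36 of 44 (median 0.057).

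For the facing pair, *Mrps11* ranged from 205 through 215 to 244 normalized counts in vehicle and from 194 through 223 to 269 in CPF libraries, and *Mrpl46* from 101 through 110.3 to 129 and from 109 through 128 to 137. The log2 fold changes were 0.043 (limma adjusted p = 0.927) and 0.15 (limma adjusted p = 0.735). *Mrps12* was at 109 ± 17.7 in vehicle and 116 ± 9.58 in CPF libraries, and its neighbour *Sars2* at 162 ± 15.6 and 166 ± 28.1 normalized counts. Of the 30 facing neighbours that are no members and were tested, the log2 fold change was positive for 19, against 49.6% of all genes. Their median was 0.028. Among them 1 was higher and 4 were lower at an unadjusted p under 0.05 (limma), against 2.77% and 4.55% of all genes. The adjusted threshold was passed by 0 of them. The largest negative and positive values among these neighbours were -0.47 for *Mitd1*, which faces *Mrpl30* (0.10), and 0.50 for *Ppp1r10*, which faces *Mrps18b* (0.044).

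Library by library, the large and the small subunit stood at nearly the same place. The deviation of each gene from its own mean over the 12 libraries was taken on the log2 scale, and its median over the genes of a subunit was compared. In vehicle replicate 2 it was -0.15 for both subunits, the lowest of all libraries. CPF replicate 1 followed, at -0.070 for the large and -0.12 for the small subunit. CPF replicate 3 was highest, at 0.12 and 0.13, then CPF replicate 2, at 0.10 and 0.12, and CPF replicate 6, at 0.063 and 0.081. The other 7 libraries lay between -0.035 and 0.040 for the large and between -0.071 and 0.045 for the small subunit.

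The largest distances between the subunits were 0.047 in CPF replicate 1, 0.046 in vehicle replicate 3 and -0.046 in CPF replicate 4, large minus small. Summed over its genes, the large subunit held between 1.77 and 1.83 times the normalized counts of the small one in every library, 1.79 ± 0.021 in vehicle and 1.80 ± 0.021 in CPF libraries (SD, n = 6 each). This ratio is of summed counts, not of molecules. All members together took 0.363 ± 0.0164% of the normalized counts of a vehicle library and 0.384 ± 0.0187% of a CPF library, with ranges of 0.336 to 0.387% and 0.365 to 0.406% that overlap.

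**Figure D4:**
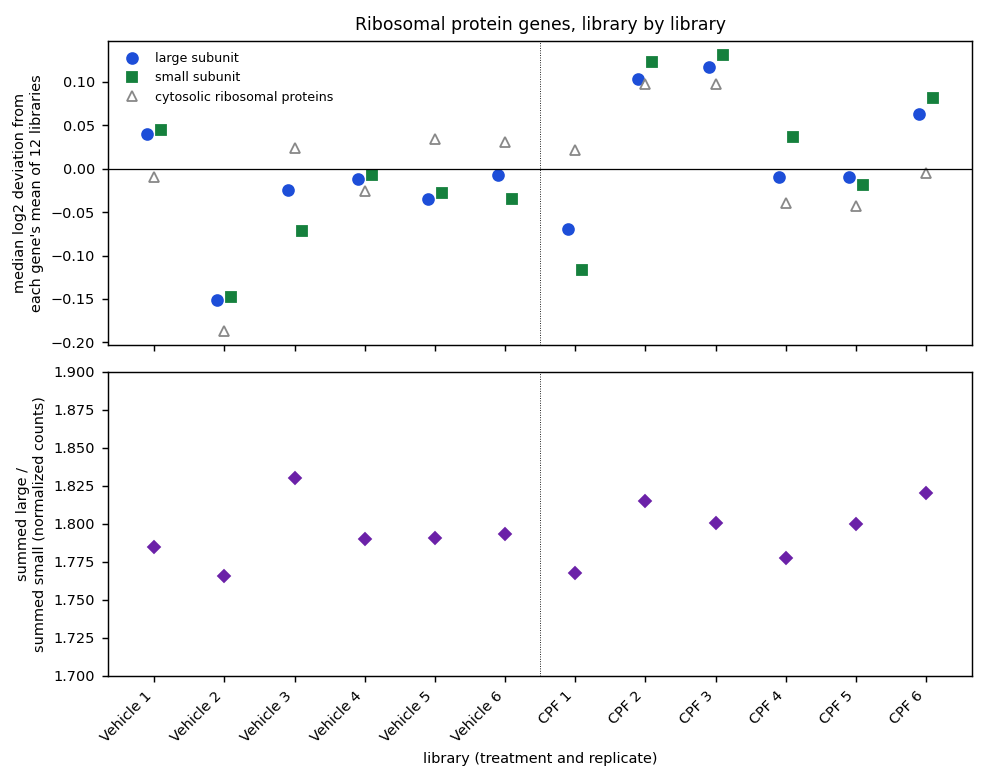
Upper panel: median log2 deviation of large subunit (circles), small subunit (squares) and cytosolic ribosomal protein genes (triangles) from their own means, in each of the 12 libraries. Lower panel: summed large over summed small subunit counts, on an axis that does not start at 0. The subunits lie together, lowest in vehicle replicate 2 (-0.15 each) and highest in CPF replicate 3 (0.12 and 0.13), and the ratio stays between 1.77 and 1.83.

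A few libraries held most of the extremes. Of the 81 members, 31 had their lowest value in vehicle replicate 2 and 22 in CPF replicate 1, together 53, and 45 had their highest in CPF replicate 2 or 3. Vehicle replicate 2 and CPF replicate 1 also stood apart on the first principal component of all genes tested. In CPF replicate 3, 73 members were above their own mean, and in vehicle replicate 2 only 14. Genes for cytosolic ribosomal proteins were also low in vehicle replicate 2, with a median deviation of -0.19, and high in CPF replicates 2 and 3, at 0.097 in each, but in CPF replicate 1 they stood at 0.021. All 6 CPF libraries were above the vehicle mean for 9 members and 5 of 6 for a further 28. Neither these counts nor those of lowest and highest values were made over all genes tested, so they describe the members only.

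**Figure D5:**
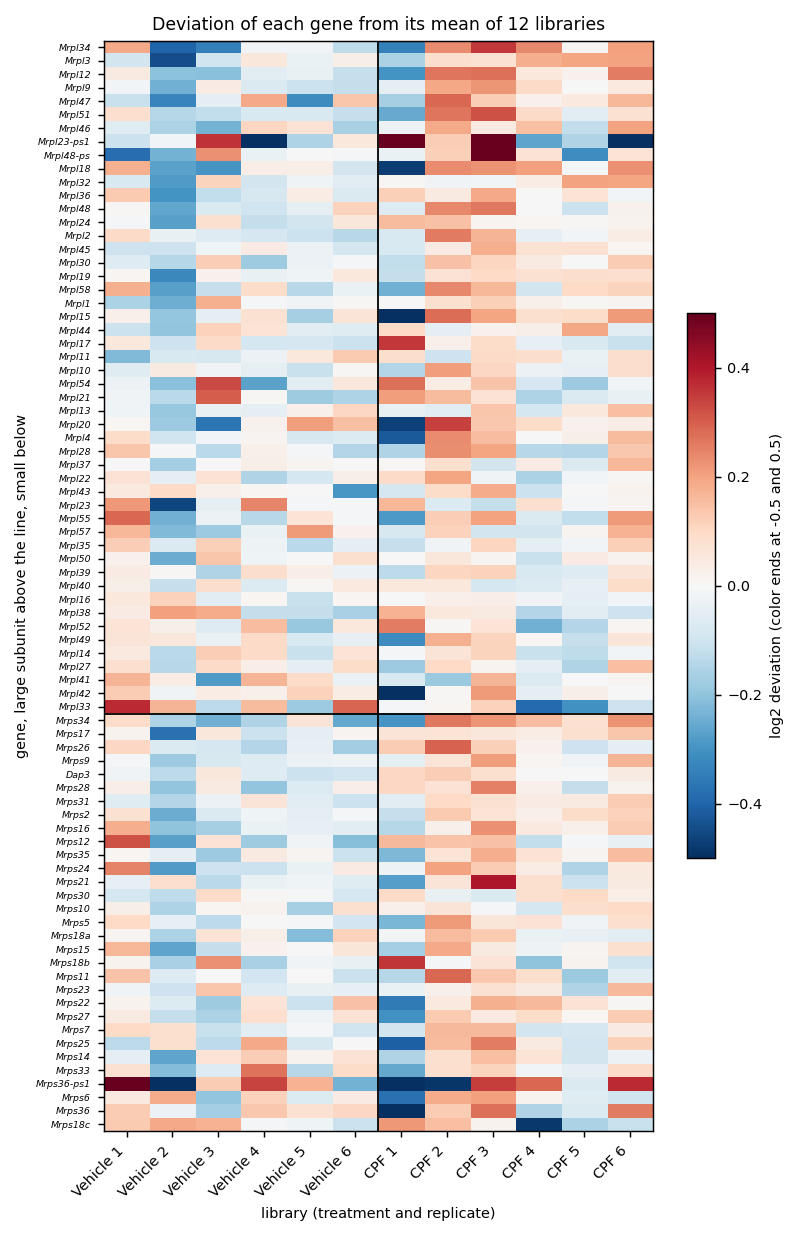
Log2 deviation of each of the 81 genes (large subunit above the horizontal line, small below, each ordered by fold change) from its own mean of 12 libraries. Blue marks lower and red higher values, with colors ending at -0.5 and 0.5. The blue column of vehicle replicate 2, where 31 genes had their lowest value, and the red columns of CPF replicates 2 and 3, where 45 had their highest, span both subunits.

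Which libraries were included decided how many members had an unadjusted p under 0.05 (limma), while 0 members passed the adjusted threshold in any of these fits. The count of higher members was 7 with all libraries, 1 without vehicle replicate 2 and 19 without CPF replicate 1, where the lowest adjusted p was 0.0758. The share of all genes moved with it, from 2.77% with all libraries to 1.82% with vehicle replicate 2 left out and 8.48% with CPF replicate 1 left out. The count of members was 11 without vehicle replicate 1, against 3.58% of all genes, and 4 without vehicle replicate 5 or 6, against 3.19% and 1.94%. It was 2 without CPF replicate 2, 3 or 6, against 2.7%, 1.88% and 2.31%, and 3 without CPF replicate 4, against 2.05%. Without vehicle replicate 3, vehicle replicate 4 or CPF replicate 5 it was 6, 5 and 6, against 506, 299 and 295 of all 13531 genes. With vehicle replicate 2 and CPF replicate 1 both left out it was 13, against 7.38% of all genes. In that fit 0 members passed the adjusted threshold, which 0.185% of all genes did on the higher side, and the lowest adjusted p among members was 0.0849. There the subunits had 38 of 50 and 26 of 31 positive values, against 49.6% of all genes, with medians of 0.052 and 0.075. The lower side was not always empty at an unadjusted p under 0.05 (limma). It held 1 member without vehicle replicate 3, vehicle replicate 5, CPF replicate 1 or CPF replicate 3. Of all 13531 genes, 737, 671, 1077 and 457 were lower in these fits.

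Replicates 1 to 3 and 4 to 6 were also compared on their own. In replicates 1 to 3, which include both libraries that stood apart, 41 of 50 large and 27 of 31 small subunit genes were positive, against 47.7% of all genes, with medians of 0.096 and 0.094. In replicates 4 to 6 the counts were 31 of 50 and 22 of 31, against 49.9% of all genes, with medians of 0.026 and 0.052. With 3 libraries a group, 0 members passed the adjusted threshold in either (lowest adjusted p of limma 1.00 and 0.175), and at an unadjusted p under 0.05 replicates 1 to 3 gave 0 higher members, against 0.54% of all genes. Replicates 4 to 6 gave 8 higher and 1 lower, against 7.09% and 6.67% of all genes. The libraries did fall into these sets: all 12 deviated from their group mean most like a library of the other group from the same set of replicate numbers. With the set as a term in the fit, an alternative chosen after seeing the data, 0 members passed the adjusted threshold (lowest adjusted p of limma 0.518), and 7 were higher at an unadjusted p under 0.05, against 3.33% of all genes. The labels do not say what the sets are. They also differed in depth. Vehicle replicates 1 to 3 held 7875502 to 8529496 reads and vehicle replicates 4 to 6 held 11282895 to 12100594. For CPF these ranges were 9313253 to 10666098 and 10678777 to 14166615. The part of depth in the differences between the sets was not tested.

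Other genes that mitochondrial translation needs were looked at in fixed lists, and 0 of them passed the adjusted threshold (limma). All 4 proteins of the mitoribosome that carry other names were above 0 on the log2 fold scale (median 0.17), against 49.6% of all genes. At an unadjusted p under 0.05 (limma) 2 of these were higher, against 2.77% of all genes. *Aurkaip1*, of the small subunit, went from 492 ± 47.4 to 558 ± 44.5 normalized counts, a log2 fold change of 0.18, and *Gadd45gip1*, of the large subunit, from 261 ± 13.98 to 290.4 ± 22.7, a log2 fold change of 0.15. *Chchd1* and *Ptcd3*, of the small subunit, had values of 0.18 and 0.015. The groups of each of these genes overlapped.

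Of 15 translation factors 13 were positive, against 49.6% of all genes, with a median of 0.071. In this list 0 were past an unadjusted p of 0.05 (limma) in either direction. The smallest p-values were those of the release factor *Mtrf1* (0.20) and of *Gatb* (0.15), part of the enzyme that makes mitochondrial glutaminyl-tRNA. Of 20 assembly factors 14 were positive, with a median of 0.061. At an unadjusted p under 0.05 (limma) 2 were higher, against 2.77% of all genes. They were *Mrm3*, which methylates the large rRNA, at 0.27 and *Mterf3*, needed for large subunit assembly, at 0.17. The 17 mitochondrial tRNA synthetases had 10 positive values and a median of 0.0076, from 0.16 for *Fars2*, the phenylalanyl enzyme, to -0.24 for *Lars2*, the leucyl enzyme. Of these 17, 1 was higher at an unadjusted p under 0.05 (limma), *Fars2*, against 2.77% of all genes, and 0 were lower.

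The mitochondrial rRNAs had negative values while most of the proteins had positive ones. The small rRNA, *mt-Rnr1*, ranged from 5527 to 7962 normalized counts in vehicle and from 4888 to 5712 in CPF libraries, so the groups overlapped by their edges. Its means were 6564 ± 1023 and 5337 ± 314 (SD, n = 6 each), with a log2 fold change of -0.29 (SE 0.089, limma unadjusted p = 0.00542 and adjusted p = 0.599). The large rRNA, *mt-Rnr2*, had a log2 fold change of -0.084, smaller than its SE of 0.15 (limma unadjusted p = 0.580 and adjusted p = 0.914). Without CPF replicate 1 the value of *mt-Rnr2* turned to 0.038. How the libraries were selected for or cleared of rRNA is not given in the sources used here, so the counts of both rRNAs rest on a step whose part was not tested.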

How the data were processed

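RNA of 12 libraries was sequenced from a directional kit. After trimming with Trimmomatic and alignment to GRCm38 with HISAT2, the authors counted exonic reads with HTSeq on the reverse strand, so antisense genes do not share reads. The deposited values are gene counts divided by a DESeq2 size factor per library, a signal on a linear scale; the rule by which genes were filtered is not given in the sources used here. Versions of these tools are not given either. Whole reads were recovered from the deposited signal for 100% of values (within 0.01 of a read), and 12 columns of ratios per library and 2 sheets of the authors' own comparisons, which hold fold changes and gene lists past thresholds, were not used. Same-group libraries differed beyond counting noise (chi-square per degree of freedom 3.15 to 35.2).

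Genes with a mean of at least 10 (13531) were tested with limma 3.58.1 (trend, robust) in R 4.3.3 on log2(value + 1), two-sided, with Benjamini-Hochberg adjustment over all of them and calls at an adjusted p under 0.05. Fold changes are on this scale, which understates those of low genes. Named members also had an exact permutation test of their log2 means, unadjusted. edgeR 4.0.16 and DESeq2 1.42.0 on the recovered reads, other pseudocounts and filters, TMM scaling, a replicate block and leaving out libraries were the alternatives. Only the limma, edgeR and DESeq2 comparisons of CPF with vehicle were tested on simulated counts, which held no libraries that stood apart. The other alternatives were not. Exon lengths, neighbours and 50-base stretches shared with other genes were read from a GENCODE annotation of GRCm38. The pseudogene rows *Mrpl23-ps1* and *Mrps36-ps1* share 92.5% and 61.1% of their stretches, so their counts are uncertain. In all, 14 members share over 10% of their stretches. Among them are *Mrpl48-ps* (44.6%), *Mrps36* (17.3%), *Mrps18b* (14.6%) and *Mrpl23* (11.6%), whose counts are less certain too.

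Genes were named by a rule: in each subunit the 4 smallest p-values among positive and the 2 among negative changes, the 3 highest and 3 lowest levels per kilobase, and *Dap3*, *Mrpl12*, *Mrpl58*, *Mrps30*, *Mrps36* and the Mrps18 paralogs, with the 2 smallest p-values of each other list. *Mrps11*, *Mrpl46*, *Mrps12* and other facing genes, genes at the ends of a range and the genes beside them were added after their values were seen. Members, lists and the rule were chosen with earlier results of these data known.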

Additional observations from a re-analysis of the deposited data

Results flagged for a closer look

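Among 84 groups of 6 libraries examined, 3 held a library whose gap to the next was large for the group's range; about 1 group in 20 does so by chance. *Mrpl3* was lowest in vehicle replicate 2, at 526 normalized counts, with a gap of 0.647 of the range, and lowest in CPF replicate 1, at 641, with a gap of 0.629. *Ptcd3* was lowest in CPF replicate 1, at 667 normalized counts, with a gap of 0.693.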

How the results depend on the processing

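In 24 alternative fits 0 members were called. Over all genes, which had 0 calls with all libraries, DESeq2 called 6 lower, leaving out 1 library gave 0 to 6 higher and 0 to 5 lower, vehicle replicate 2 and CPF replicate 1 both left out gave 25 higher and 29 lower, and replicates 4 to 6 gave 8 higher and 14 lower; the cause was not tested. Replicate numbers did not pair the libraries: correlations of same-numbered libraries ran from -0.21 to 0.26, and 2 of 12 libraries correlated best with their own number. With the replicate block 0 genes were called, and 3 members instead of 7 were higher at an unadjusted p under 0.05, against 2.79% of all genes; a balanced block cannot move the log2 fold changes. Leaving out 1 library gave 35 to 43 positive large and 23 to 29 positive small subunit genes, with medians of 0.045 to 0.077 and 0.040 to 0.092. The difference of the medians, large minus small, was 0.00062 and ranged from -0.019 to 0.017 without 1 library and from -0.026 to 0.0074 in the other alternatives. Leaving out the 3 pseudogenes, an alternative chosen after seeing the data, gave medians of 0.059 and 0.061.

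Some log2 fold changes turned their sign, and the cause was not tested. With 1 library left out the log2 fold change ran from -0.068 to 0.073 for *Mrpl23*, -0.023 to 0.094 for *Mrps18b*, -0.0039 to 0.13 for *Mrps21*, -0.14 to 0.047 for *Mrps36*, -0.20 to 0.091 for *Mrps36-ps1*, -0.087 to 0.028 for *Mrps6*, -0.038 to 0.14 for *Ptcd3* and -0.15 to 0.038 for *mt-Rnr2*. With both libraries left out it was -0.099 for *Mrpl23*, -0.051 for *Mrps18b*, 0.033 for *Mrps36* and 0.061 for *Mrps6*. In replicates 4 to 6 it was -0.046 for *Mrpl23*, -0.016 for *Mrpl48*, -0.019 for *Mrps18a*, -0.023 for *Mrps18b* and 0.11 for *Mrps36-ps1*, and in replicates 1 to 3 it was 0.044 for *Mrpl14* and -0.047 for *Ptcd3*. The last 150 bases of the promoter windows held the NRF1, ETS, YY1 and TATA letters in 19.1%, 29.4%, 13.2% and 1.47% of members. Depth limited the pseudogenes, with as few as 6 reads in a library; the other members had at least 49.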
